A study of Mus musculus with 10 samples.

Results

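The genes described here were 8 components of cytokine signalling in bone endothelial cells (ECs). They were the shared receptor gp130 (Il6st), its partner receptors Lifr and Osmr, the feedback inhibitor Socs3, the interleukin-4 and interleukin-13 receptors Il4ra, Il13ra1 and Il13ra2, and the interleukin-1 receptor Il1r1. They were chosen by name from the 26228 genes of the count tables, with earlier results of these data known. All 8 were measured. Their counts of unique molecular identifiers (UMIs, each standing for 1 captured RNA molecule) were compared between vessel types and between groups of mice. The samples were single-cell RNA-seq libraries from femur and tibia of C57BL/6 mice carrying the Cdh5-mTnG reporter, in which the vascular cadherin promoter drives membrane tdTomato and nuclear GFP in ECs. Cells were depleted of blood lineages and sorted for both fluorescent proteins. There were 10 libraries in 5 groups of 2. The age groups were juvenile mice of 3 weeks (2 females and 2 males), adult mice of 12 weeks (6 females) and aged mice of 75 weeks (3 females). Other mice of 12 weeks were given parathyroid hormone 1-34 (PTH) at 100 µg per kg daily, or alendronate at 2 mg per kg every other day. These treated mice were taken as females, since among these groups the paper names both sexes only for 3-week-old mice. Their number is not stated. Whether the adult mice received vehicle injections is not stated either, so injection and drug cannot be told apart. Parathyroid hormone stimulates bone formation when given intermittently, and alendronate is a bisphosphonate that blocks bone resorption by osteoclasts. The 2 libraries of a group came from 1 pool of mice, so the spread between them may be technical. P-values of comparisons between groups measure that spread only. P-values between types measure the spread of type differences over all 10 libraries, which includes group effects that differ between types. The tests between types also count the libraries of 1 pool as independent. All 4 other groups were compared with the same 2 adult libraries.

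Gp130 is the signal-transducing chain of the interleukin-6 family. It pairs with Lifr to bind leukaemia inhibitory factor and with Osmr to bind oncostatin M, and the receptor-bound Janus kinases then phosphorylate STAT3. Socs3 is transcribed in response to STAT3, binds gp130 and its kinases and ends the signal. Il4ra joins Il13ra1 to form the receptor of interleukin-4 and interleukin-13, whereas Il13ra2 binds interleukin-13 tightly, has a short cytoplasmic tail and is known as a decoy. Il1r1 binds interleukin-1 and activates NF-kB, and marrow ECs are known targets and sources of cytokines that act on haematopoietic cells.

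Of 47466 cell barcodes (2193 to 7805 per library), 46282 held 500 to 6000 genes with under 25% mitochondrial UMIs, and 45069 of these held at least 2 UMIs over Cdh5, Pecam1, Egfl7 and Kdr. Library totals ran from 10653583 (PTH 1) to 28419323 UMIs (PTH 2), with 333564 UMIs of the 8 genes in the gated cells. In all, 932 barcodes occurred in over 1 library, and no pair of libraries shared over 74 barcodes, 1.33% of the smaller one. Median depth was 5016.5 and 4882 UMIs per cell in the aged libraries and 3116 to 4206 in the others. The aged libraries also held 1.52 and 1.53% of their UMIs in 276 genes whose names begin with U, which had no UMI elsewhere. The labels name V2 and V3 kits without saying which library had which, so age, kit and counting cannot be told apart.

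Clusters were named by markers, and 35349 cells fell into 5 types. These were bone marrow sinusoidal ECs (bmECs; 17062 cells, Stab2), a Slco2a1/Crispld1 type (2227 cells), arterial ECs (aECs; 6459 cells, Gja4), metaphyseal ECs (mpECs; 6821 cells, Ramp3 and Aplnr) and type R ECs (rECs; 2780 cells, Timp4 and Aqp7). Stab2 had a median of 1956 CPM (UMIs of a gene scaled to a common total per sum) over the 10 libraries in bmECs and 1101 in the Slco2a1/Crispld1 type, against 52.3 to 269 in the other types, so the Slco2a1/Crispld1 cells also carried the sinusoidal marker. Aplnr was not particular to mpECs, at a median of 1375 CPM there and 658 and 662 CPM in rECs and the Slco2a1/Crispld1 type. The 2 genes that name the latter were only moderately higher in it. Slco2a1 had a median of 264 CPM against 154 in mpECs and 119 in bmECs. Crispld1 had 156.5 CPM against 82.9 in mpECs and 86.2 in bmECs. Slco2a1 in single mpEC libraries reached 216 CPM, above the lowest of this type (209 CPM). Levels below are CPM of the summed UMIs of 1 type in 1 library, scaled by the trimmed mean of M values (TMM). These levels compare 1 gene between cells and not different genes with each other. The juvenile and PTH 1 sums of rECs rested on 46, 30 and 26 cells. A bmEC cluster of 2410 cells and an mpEC cluster of 2474 cells, both led by the predicted gene Gm10800, were shallow. Their median depths were 0.405 and 0.370 of the median of each cell's library. An aEC cluster of 976 cells led by Nebl and Sema3g was as shallow (0.406), and the rEC cluster was at 0.564. Median depth was 1995 UMIs per cell in rECs, against 3232 (mpECs) to 3782.5 (bmECs) in the other types.

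Il6st was highest in sinusoidal vessels and next highest in the Slco2a1/Crispld1 type. Its median level over the 10 libraries was 2256 CPM in bmECs, 1234 in the Slco2a1/Crispld1 type, 296 in mpECs, 249.8 in aECs and 205 in rECs. Each bmEC library (2046 to 3123 CPM) lay above each library of every other type (at most 1626 CPM). The gene lies on chromosome 13 (112464070 to 112510086, plus strand, mm10). Against the unweighted mean of the other types, Il6st was higher by a log2 fold change of 2.85 ± 0.07 in bmECs (SE, adjusted p = 4.62e-37) and by 1.48 ± 0.08 in the Slco2a1/Crispld1 type (adjusted p = 1.49e-22). It was lower by -1.32 ± 0.09 in aECs, -1.21 ± 0.09 in mpECs and -1.79 ± 0.11 in rECs. Neighbours in the order differed except mpECs and aECs (difference 0.09 ± 0.10, adjusted p = 0.47). The value of rECs depended on how that type was bounded, since it became 0.27 (adjusted p = 0.0327) when clusters were named without requiring every defining marker, which counted a cluster led by Tagln, Vwf and Fmo2 (described below) with it, and -0.03 when cells were typed one by one from their marker UMIs. Under these settings the excess of the Slco2a1/Crispld1 type was 0.85 and 0.20, and at clustering resolutions of 0.4 and 0.8 the deficit was -0.88 and -0.85 in aECs and -0.34 and -0.30 in mpECs, all under the fold threshold. Without requiring every defining marker the mpEC deficit was -1.84, while the excess of bmECs passed in every setting run.

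**Figure D1:**
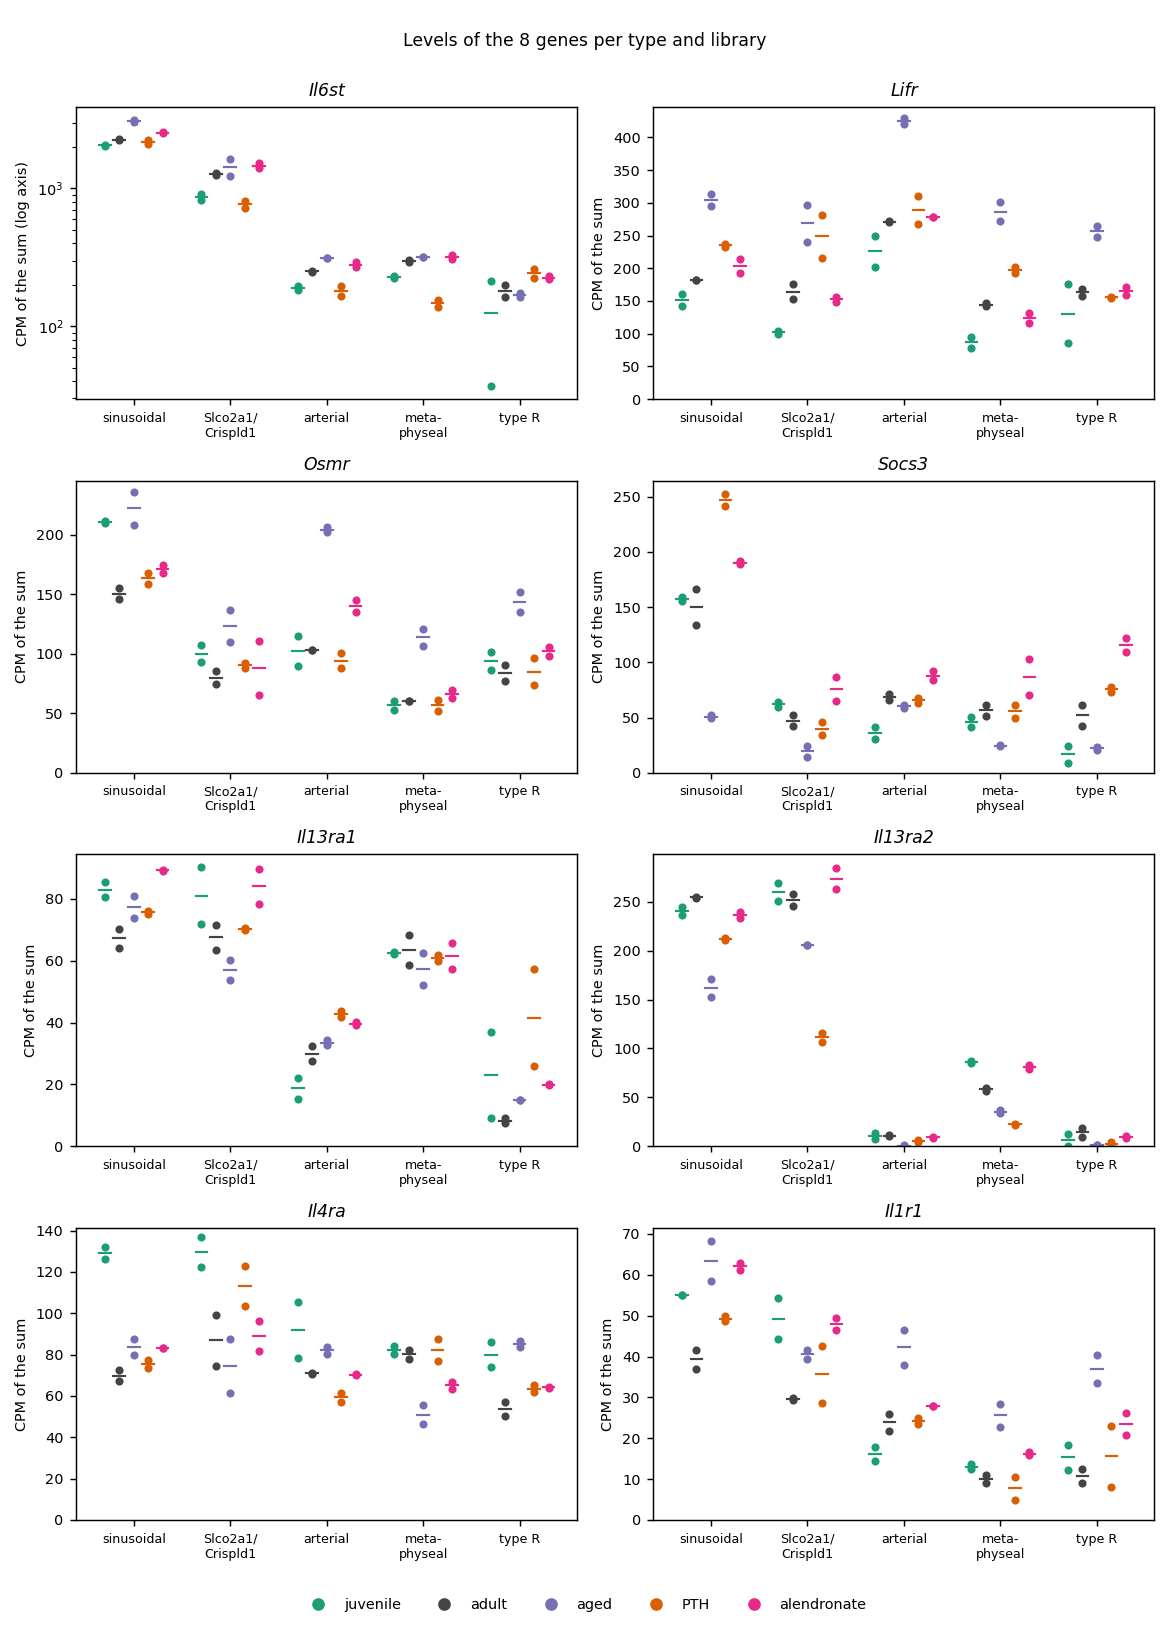
Level of each of the 8 genes in CPM, per vessel type and library (points, coloured by group, n = 10 libraries) with the mean of each group (bars). The Il6st axis is logarithmic and the others are linear from 0; Il6st and Il13ra2 are high in the sinusoidal and Slco2a1/Crispld1 types, while Lifr, Osmr and Il4ra reach the fold threshold in no type.

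Il13ra2, the decoy receptor of interleukin-13 (chromosome X, 147383476 to 147429192, minus strand), was also highest in these types and was at or near 0 in many aEC and rEC sums. Its median level was 234.5 CPM in bmECs and 249 CPM in the Slco2a1/Crispld1 type, against 58.3 CPM in mpECs, 8.35 CPM in aECs and 6.17 CPM in rECs, where 42 UMIs were counted in all 10 libraries together. It was higher than the mean of the other types by 3.07 ± 0.12 in bmECs (adjusted p = 1.57e-28) and by 3.01 ± 0.14 in the Slco2a1/Crispld1 type, and lower by -3.25 ± 0.26 in aECs and -3.33 ± 0.31 in rECs. The aEC value was -1.62 at a resolution of 0.8, the smallest over the settings run. The excess of 0.49 ± 0.16 in mpECs stayed under the required log2 fold change of 1. BmECs and the Slco2a1/Crispld1 type did not differ beyond their spread (0.05 ± 0.14, adjusted p = 0.827), nor did aECs and rECs (0.06 ± 0.46, adjusted p = 0.942). The RefSeq promoter is printed because it was the only promoter of the 8 genes with a match to the AP-1 motif TGANTCA, the site that Fos and Jun proteins bind. The 250 bases before the start site (GRCm38.p6, chrX:147429193-147429442, minus strand) hold it 187 bases upstream, in capitals:
Il13ra2: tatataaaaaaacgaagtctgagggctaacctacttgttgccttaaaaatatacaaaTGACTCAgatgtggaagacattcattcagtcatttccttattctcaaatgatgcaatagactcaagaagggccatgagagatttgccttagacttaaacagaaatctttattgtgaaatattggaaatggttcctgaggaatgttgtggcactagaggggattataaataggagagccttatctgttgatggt
Both strands were searched, and 6.75% of 32851 RefSeq promoter windows of this kind held the motif.

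Il13ra1, the signalling chain for interleukin-13 (chromosome X, 36112110 to 36171259, plus strand), was lowest in rECs, with a median of 17.4 CPM against 78.4 in bmECs, 71.1 in the Slco2a1/Crispld1 type, 62.0 in mpECs and 33.5 in aECs. The deficit in rECs was -1.72 ± 0.14 (adjusted p = 1.16e-15), and the excess in bmECs (0.94 ± 0.07) stayed under the fold threshold. Counting the Tagln, Vwf and Fmo2 cluster with rECs reduced the deficit to -0.29, and typing by marker UMIs to -0.61. Il4ra, which pairs with Il13ra1 (chromosome 7, 125552120 to 125579474, plus strand), passed in no type, with medians from 64.8 CPM in rECs to 97.7 CPM in the Slco2a1/Crispld1 type. It overlaps the antisense gene Gm44876, and since the strand setting of the counting is not stated, reads of the pair may not be separable.

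Lifr, the leukaemia inhibitory factor receptor (chromosome 15, 7090614 to 7197489, plus strand), was highest in aECs, where Il6st was low, and Osmr, the oncostatin M receptor beside it on chromosome 15 (6813577 to 6874969, minus strand), was highest in bmECs. Neither reached the fold threshold in any type. Lifr in aECs ranged from 202 to 429 CPM (0.71 ± 0.06 above the mean of the other types, adjusted p = 1.94e-14), and Osmr in bmECs from 146 to 236 CPM (0.94 ± 0.06, adjusted p = 3.56e-20). The lowest Osmr levels were those of mpECs, 52.0 to 121 CPM (-0.84 ± 0.07). In the order of Lifr levels the Slco2a1/Crispld1 type and rECs did not differ (adjusted p = 0.531), nor did rECs and mpECs (adjusted p = 0.399).

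Socs3 (chromosome 11, 117966079 to 117970047, minus strand) and Il1r1 (chromosome 1, 40225080 to 40317257, plus strand) were also highest in bmECs by their medians over libraries. In aged libraries Socs3 was lower in bmECs (52.1 and 49.8 CPM) than in aECs (61.3 and 58.9 CPM). Over all libraries Socs3 exceeded the mean of the other types by 1.40 ± 0.11 there (adjusted p = 4.59e-16), and neighbours among the other 4 types did not differ (adjusted p of 0.652, 0.294 and 0.87). Without a bmEC cluster led by Fos and Fosb the excess was 0.86 (adjusted p = 1.37e-09), under the fold threshold. Il1r1 had a median of 55.0 CPM in bmECs (1.13 ± 0.08, adjusted p = 2.03e-18) and of 13.1 CPM in mpECs (-1.29 ± 0.11), with 42.1, 25.4 and 19.7 CPM in the Slco2a1/Crispld1 type, aECs and rECs. Its bmEC excess was 0.80 without the condition on defining markers and its mpEC deficit -0.70 and -0.74 at resolutions of 0.4 and 0.8, under the fold threshold. Il1r1 overlaps Gm38070 on the same strand. The Socs3 promoter is printed because it alone of the 8 held the STAT motif TTCNNNGAA, found in 7.02% of the promoter windows on either strand. The 165 bases shown (GRCm38.p6, chr11:117969452-117969616, minus strand) are those of the 250 before the RefSeq start that lie in no exon, with the match, 146 bases upstream, in capitals:
Socs3: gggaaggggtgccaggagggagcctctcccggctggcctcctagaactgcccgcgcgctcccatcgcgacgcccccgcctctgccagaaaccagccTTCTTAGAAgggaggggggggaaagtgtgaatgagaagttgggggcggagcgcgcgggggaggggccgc
Gene positions given here follow the GENCODE annotation, in which Socs3 starts further upstream than the RefSeq start used for its promoter (117969366). The bases shown therefore lie within Socs3 as positioned above. A match is a sequence feature and not evidence of binding.

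Of the 8 genes, 4 passed in bmECs (Il6st, Il13ra2, Socs3 and Il1r1, all higher), where 13.9% of 10931 genes tested passed. The other counts were 2 in the Slco2a1/Crispld1 type (both higher; 8.21% of genes), 2 in aECs (both lower; 12.0%), 2 in mpECs (both lower; 6.28%) and 3 in rECs (all lower; 15.9%). The median log2 fold change of the 8 was 1.03 in bmECs and -0.47 in mpECs, against 0.05 and 0.03 over all genes tested. Between pairs of types the count of genes that passed was 2 for bmECs and the Slco2a1/Crispld1 type (5.07% of all genes), 4 for bmECs and aECs (19.9%), 5 for bmECs and mpECs (12.8%) and 5 for bmECs and rECs (23.1%), each higher in bmECs. The Slco2a1/Crispld1 type differed from aECs in 3 genes (16.5%), from mpECs in 3 (6.28%) and from rECs in 3 (19.9%). Among the remaining types there was 1 between aECs and mpECs (13.2%), 0 between aECs and rECs (11.3%; 4 had an edgeR adjusted p under 0.05 with log2 fold changes under 1) and 2 between mpECs and rECs (16.9%).

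The kinases and targets of the pathway were also described, beside a background of 13.9% of genes called in bmECs, 12.0% in aECs and 15.9% in rECs. Jak1, the kinase bound to gp130, was higher in bmECs by 1.94 ± 0.05 and lower in aECs (-1.09 ± 0.06) and rECs (-1.16 ± 0.07), and Jak2 was higher in bmECs by 1.38 ± 0.05. These were the 2 of 11 tested JAK-STAT transducers that passed in bmECs. Of 9 tested genes known to rise with STAT3, 5 were higher and none lower in bmECs, with a median of 1.00 (all genes 0.05), among them Lrg1 (2.43 ± 0.12), a secreted glycoprotein that acts on vessels, Cebpb (1.97 ± 0.08) and the adhesion molecule Icam1 (1.95 ± 0.12). In rECs 3 of these 9 were lower and none higher (Lrg1 -3.57 ± 0.19, Cebpb -1.69 ± 0.17 and Myc -1.30 ± 0.25). Of 17 other interleukin receptors tested, 2 were higher and 3 lower in bmECs, with Il10ra (2.74 ± 0.21) highest and Il10rb (-1.24 ± 0.07) lowest. Il6ra, the chain that binds interleukin-6 itself, was lower in bmECs (-1.20 ± 0.32) and higher in aECs (1.93 ± 0.25). Of 11 other JAK-STAT inhibitors, only Cish passed in bmECs (1.23 ± 0.12). Of 10 gp130 ligands, 2 had enough UMIs to be tested and neither passed in bmECs.

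Over the 50 sums of type and library, Jak1 was the gene most like Il6st (Pearson's r of log2 CPM 0.946 among 6639 genes), followed by Prelp (0.941), Sele (0.934), Acer3 (0.93) and Tbc1d4 (0.922). For Socs3 the nearest were Fos (0.832), Imp3 (0.817), Junb (0.816), Chp1 (0.798) and Grrp1 (0.792). Among the 8 genes, Il6st was closest to Il13ra2 (r = 0.764) and Il1r1 (0.763) and little related to Lifr (0.107). These values describe the order of levels over sums that share libraries and type labels.

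The differences between types were also visible as shares of cells, given here over the pooled libraries. With every cell thinned to 1000 UMIs, 82.8% of bmECs and 55.7% of the Slco2a1/Crispld1 type held an Il6st UMI, against 22.85% of aECs, 22.2% of mpECs and 17.3% of rECs. Cells outside the EC gate that carried haematopoietic or erythroid markers gave 5.52% (29 of 525, exact 95% interval 3.73 to 7.84%). Their UMIs may be free RNA or transcripts of their own, and these were not separated. In single libraries the outside share ran from 0.725 to 15.9% with a median of 10% (7 libraries with at least 20 such cells), and that of rECs from 6.67 to 19.9%, so these overlapped. Without thinning, pooled shares were 97.99% in bmECs (median depth 3782.5 UMIs) and 24.7% outside the gate (4966 UMIs). Il13ra2 was found in 18.5% of bmECs, 18.3% of the Slco2a1/Crispld1 type and 4.61% of mpECs. Its shares of 0.759% in aECs and 0.649% in rECs lay within the interval of the outside share (0.191%, 0.00482 to 1.06%). Socs3 was found in 11.4% of bmECs against 3.81% (20 of 525, 2.34 to 5.82%) outside the gate. Its shares in aECs (6.05%, 5.47 to 6.67%), rECs (5.80%, 4.91 to 6.79%), the Slco2a1/Crispld1 type (4.27%, 3.47 to 5.20%) and mpECs (4.22%, 3.74 to 4.75%) had intervals that overlapped the outside one. The pooled rEC share leaned on alendronate cells, and its median over libraries was 3.41% (0 to 11.5%), against 3.62% (1.69 to 6.67%) outside. After thinning to 2000 UMIs pooled rECs were at 11.2% (9.59 to 13.0%) against 6.24% (4.15 to 8.94%), and the medians over libraries were 7.69 and 5%. Of the 40 shares of gene and type, 37 medians over libraries lay above the median outside share. For Il13ra2 and Il1r1 that outside median was 0, so any median over 0 counted as above. This count therefore does not show detection above the outside cells.

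**Figure D2:**
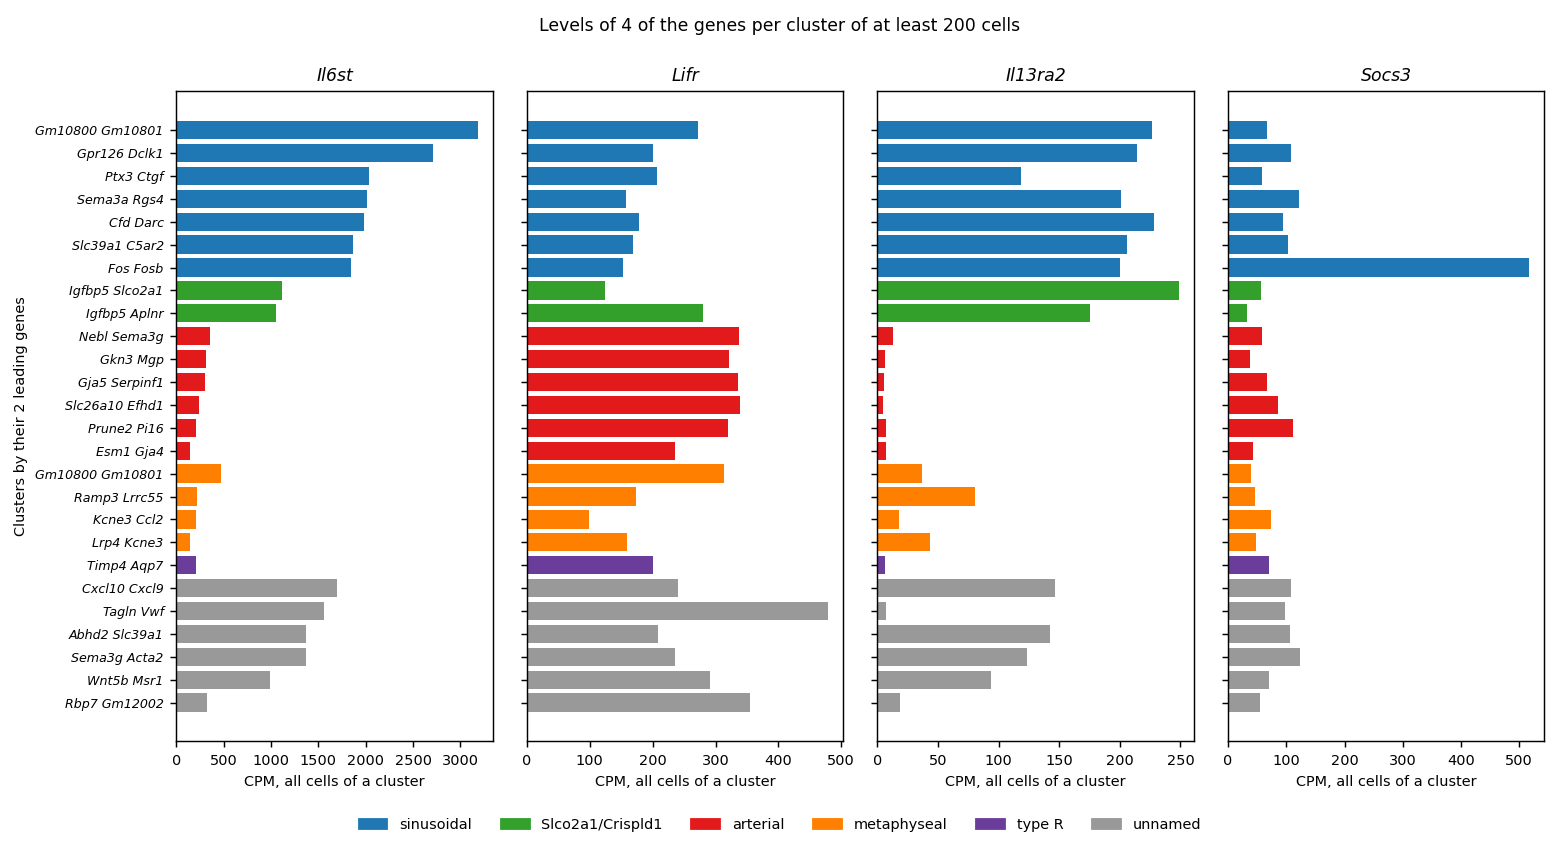
Il6st, Lifr, Il13ra2 and Socs3 in CPM for each cluster of at least 200 cells of the 5 types or unnamed, with all libraries pooled (plain totals) and clusters coloured by type (grey, unnamed). Il6st is 1843 to 3183 CPM in the 7 sinusoidal clusters and also high in unnamed clusters such as the one led by Tagln, Vwf and Fmo2, and Socs3 is highest in the sinusoidal cluster led by Fos and Fosb.

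Several clusters could not be named, and Il6st was high in some. The cluster of 1463 cells led by Tagln, Vwf and Fmo2 had an Il6st level of 1139 to 2124 CPM over the 10 libraries (plain totals, without TMM scaling), with a median of 1327 CPM. Its aged libraries were highest (2068 and 2124 CPM), followed by PTH (1739 and 1653 CPM), while the adult ones were at 1331 and 1218 CPM. It also held 375 to 816 CPM of Lifr and a median of 6.497 CPM of Il13ra2, so high Il6st occurred there without the decoy receptor. Type R was the best match of this cluster by its marker score, with 3 of the 5 type R markers up, and C1qtnf9 and Fmo2, both type R markers, were among its leading genes. Its Timp4 and Aqp7 (medians of 52.7 and 42.8 CPM) were far under those of rECs (1122 and 534 CPM) but above those of the other types (at most 15.2 and 10.2 CPM). It was left out of rECs because Timp4 and Aqp7 were not up, a decision made after its Il6st level had been seen, and that decision sets the sign of the Il6st value of rECs. A cluster led by Cxcl10, Cxcl9 and Cd74 (556 cells) had 1695 CPM of Il6st. Clusters led by Wnt5b, Msr1 and Scgb3a1 (1559 cells) and by Rbp7, Gm12002 and Ces2e (2291 cells) had 992 and 324 CPM.

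In juvenile bone, Il4ra was higher in bmECs and the Slco2a1/Crispld1 type, and Lifr and Il6st were lower in most types than in adult bone. The juvenile pool held both sexes and the adult pool only females, so age and sex cannot be told apart in these comparisons. Il4ra in bmECs stood at 126 and 132 CPM in juvenile, 72.5 and 67.1 in adult, 87.6 and 80.0 in aged, 77.4 and 73.6 in PTH and 83.4 and 83.0 in alendronate libraries. Both juvenile libraries lay above all 8 others, and the log2 fold change to adult was 0.88 ± 0.06 (adjusted p = 2.67e-14). In the Slco2a1/Crispld1 type it was 0.58 ± 0.15, and leaving out juvenile 1 or adult 2 ended that call (0.50, adjusted p = 0.0695, and 0.39, adjusted p = 0.209). Within clusters, Il4ra was higher in juvenile than in adult cells in 7 of 7 bmEC clusters.

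Lifr in mpECs was 94.8 and 78.6 CPM in juvenile against 142 and 147 CPM in adult libraries, with no overlap (-0.74 ± 0.10, adjusted p = 6.3e-08). It was also lower in the Slco2a1/Crispld1 type (-0.69 ± 0.14) and bmECs (-0.27 ± 0.06). Il6st was lower by -0.53 ± 0.09 in the Slco2a1/Crispld1 type, -0.39 ± 0.10 in aECs, -0.38 ± 0.08 in mpECs and -0.13 ± 0.04 in bmECs, and the aEC call was lost without juvenile 2 (-0.34, adjusted p = 0.134). The mpEC value of Il6st ran from -0.79 with typing by marker UMIs to -0.22 without the Gm10800 clusters. Without centring by library its values were -0.20 in bmECs and -1.13 in the Slco2a1/Crispld1 type, and Lifr in the latter was -1.14 with typing by marker UMIs. Osmr was higher in bmECs (0.49 ± 0.06, adjusted p = 2.95e-09), where juvenile libraries had 212 and 209.9 CPM and adult ones 155 and 146 CPM. Il1r1 was higher in bmECs (0.48 ± 0.08) and in the Slco2a1/Crispld1 type (0.74 ± 0.22), the latter lost without juvenile 1 (0.59, adjusted p = 0.188), adult 1 (0.74, 0.0877) or adult 2 (0.75, 0.0862). Il13ra1 rose by 0.31 ± 0.07 in bmECs, and Il13ra2 was higher in mpECs by 0.57 ± 0.12, or -0.12 (adjusted p = 0.708) without centring by library and 0.32 (0.128) with typing by marker UMIs. Typing by marker UMIs also ended the Slco2a1/Crispld1 calls of Il6st (-0.09), Il4ra (0.67, adjusted p = 0.354) and Il1r1 (0.05), and omitting the centring those of Lifr (-0.05), Il4ra (0.26) and Il1r1 (0.47), where 1 juvenile library of 23 cells was left in that type. Socs3 was lower in aECs (-0.92 ± 0.19), which did not pass without juvenile 2 (-0.71, adjusted p = 0.0741).

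The juvenile counts were 6 of 8 in bmECs (36.7% of all genes), 4 in the Slco2a1/Crispld1 type (13.4%), 2 in aECs (12.6%), 3 in mpECs (20.5%) and 0 of 7 tested in rECs (3.25%), where Il13ra2 had too few UMIs and no member had an unadjusted p under 0.05 other than Socs3 (3 UMIs against 44 in adult, ratio 0.301, exact 95% interval 0.0598 to 0.939). DESeq2 called 12 in place of 15 over all types, without the Il6st call in aECs and the Il4ra and Il1r1 calls in the Slco2a1/Crispld1 type. In juvenile bmECs 2 JAK-STAT transducers were higher and 5 lower of 11 (Jak2 0.84 ± 0.07, median -0.15, all genes -0.00234), and 3 of 11 other inhibitors were higher, led by the growth hormone signalling inhibitor Socs2 (1.51 ± 0.05). Of 11 genes known to rise with STAT3, 4 were higher and 2 lower (median 0.15).

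**Figure D3:**
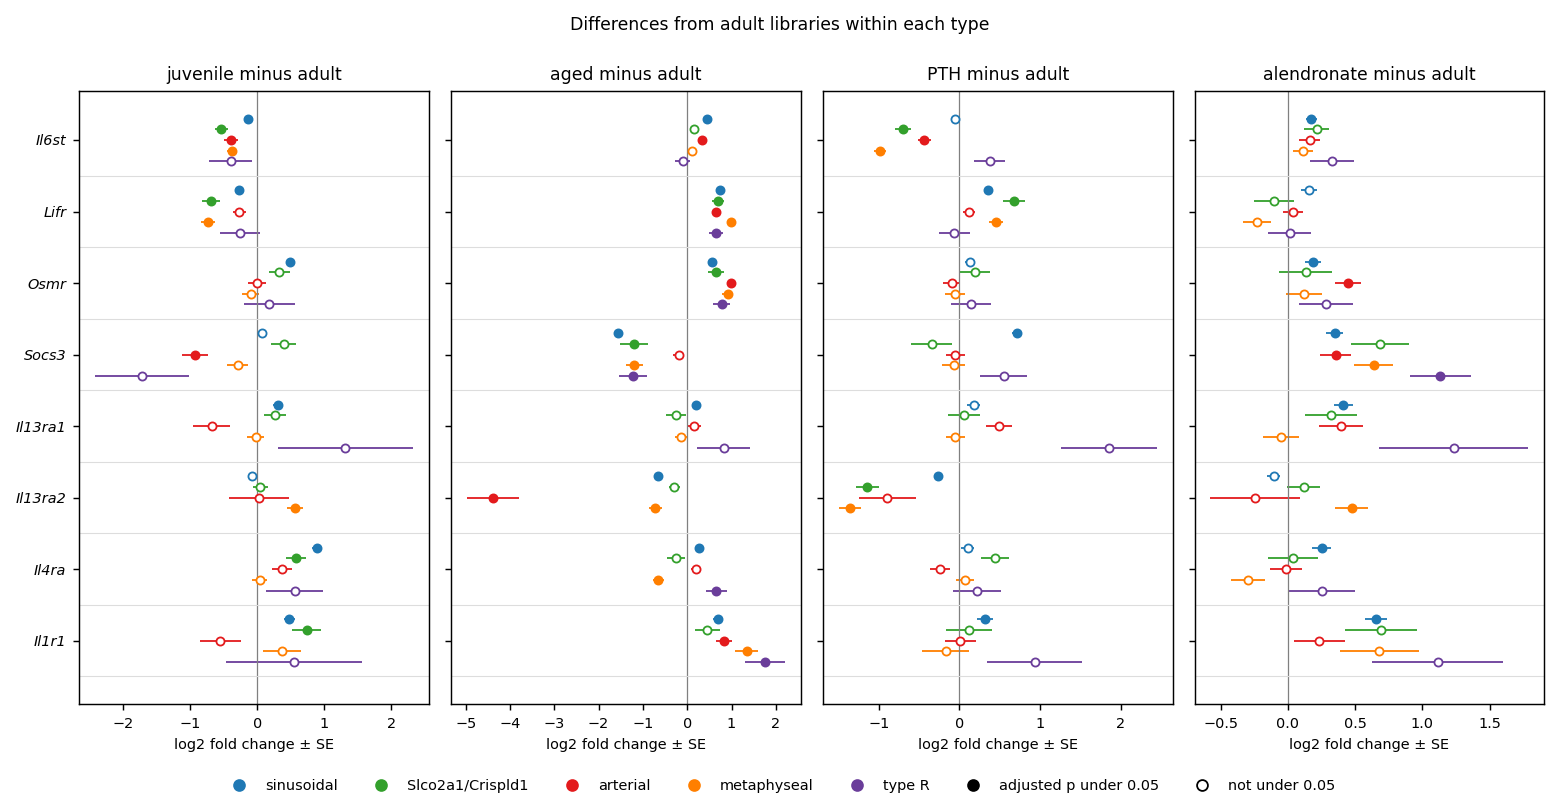
Log2 fold change to adult with its SE for each of the 8 genes and each vessel type, in panels for juvenile, aged, PTH and alendronate (n = 2 libraries per group; filled points, edgeR adjusted p under 0.05; axes differ in range). Lifr and Osmr are to the right of 0 in every aged type, and Il6st in PTH is to the left in mpECs, the Slco2a1/Crispld1 type and aECs.

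In aged bone, Lifr and Osmr were higher in all 5 types, and Socs3 was lower in 4. In rECs these values stood beside erythroid markers of 452 and 2842 CPM in the aged and 219 and 472 CPM in the adult libraries, whose part was not tested. Lifr in bmECs was 161 and 143 CPM in juvenile, 183 and 182 in adult, 314 and 294.5 in aged, 238 and 232 in PTH and 214 and 193 in alendronate libraries. In mpECs it was 272 and 301 CPM in aged against 142 and 147 CPM in adult libraries. The aged libraries were the highest in both types. Log2 fold changes of Lifr were 0.74 ± 0.06 in bmECs (adjusted p = 9.4e-14), 0.69 ± 0.14 in the Slco2a1/Crispld1 type, 0.65 ± 0.07 in aECs, 0.99 ± 0.09 in mpECs (adjusted p = 1.65e-14) and 0.65 ± 0.15 in rECs. Within clusters, Lifr was higher in aged cells in 7 of 7 bmEC, 6 of 6 aEC, 3 of 3 mpEC and 2 of 2 Slco2a1/Crispld1 clusters.

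Osmr in aECs was 202 and 206 CPM in aged against 103 and 103 CPM in adult libraries, with 87.7 to 145 CPM in the other groups (0.99 ± 0.09, adjusted p = 9.87e-12). It was higher by 0.56 ± 0.06 in bmECs, 0.65 ± 0.18 in the Slco2a1/Crispld1 type, 0.91 ± 0.12 in mpECs and 0.78 ± 0.19 in rECs (1.19 with typing by marker UMIs). The Slco2a1/Crispld1 call rested on aged 2, without which it was 0.51 (adjusted p = 0.129), and with typing by marker UMIs neither Osmr (0.37, adjusted p = 0.492) nor Lifr (0.32, 0.419) passed in that type. Il6st in bmECs was 3123 and 3020 CPM in aged against 2278 and 2234 CPM in adult libraries (0.45 ± 0.04, adjusted p = 1.63e-12, or 0.68 with relative log expression (RLE) size factors in place of TMM). In aECs it was 313 in both aged libraries against 248 and 251 CPM (0.33 ± 0.07), a difference of -0.01 (adjusted p = 0.914) when clusters were named without requiring every defining marker and of 0.05 and 0.02 at resolutions of 0.4 and 0.8. Il6st in mpECs changed by 0.10 ± 0.08 and did not pass (adjusted p = 0.235), but was 0.35 (adjusted p = 0.000265) without clusters led by the predicted gene Gm10800.

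Socs3 in bmECs was 156 and 159 CPM in juvenile, 134 and 166 in adult, 52.1 and 49.8 in aged, 252 and 241.5 in PTH and 192 and 189 in alendronate libraries. The aged libraries were the lowest of the 10 and the PTH libraries the highest. The aged difference was -1.55 ± 0.09 in bmECs (adjusted p = 1.05e-17), -1.21 ± 0.31 in the Slco2a1/Crispld1 type, -1.19 ± 0.19 in mpECs and -1.22 ± 0.31 in rECs, and it did not pass in aECs (-0.19 ± 0.12, adjusted p = 0.175). The Slco2a1/Crispld1 call was lost without aged 1 (-0.84, adjusted p = 0.0737) and in DESeq2 (adjusted p = 0.0555), and the rEC call without adult 1 (-0.90, adjusted p = 0.103). The mpEC value was -0.60 at a resolution of 0.8, and that of the Slco2a1/Crispld1 type -1.83 with typing by marker UMIs. Early-response genes of cell dissociation, which tissue digestion can raise, were lower too. Their 12 genes summed to 908 to 969.6 CPM in aged and 2460 to 2610 CPM in adult bmECs. In aECs they were also lower (1064 to 1130 against 1959 to 2182 CPM), although Socs3 did not pass there (61.3 and 58.9 against 71.3 and 65.8 CPM), and their part in the Socs3 result was not tested.

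Il13ra2 in aECs was 7.82 and 14.1 CPM in juvenile, 10.4 and 11.2 in adult, 0.943 and 0 in aged, 4.53 and 6.31 in PTH and 8.88 and 9.38 in alendronate libraries. The aged libraries held 3 UMIs against 42 in adult ones, a ratio of 0.0434 (exact 95% interval 0.00861 to 0.136, counting error only). The fitted change of -4.38 ± 0.59 (adjusted p = 5.7e-08) became -7.70 without aged 1. In bmECs Il13ra2 was 171 and 153 CPM in aged against 254 and 255 CPM in adult libraries, the lowest of the 10 (-0.65 ± 0.06, adjusted p = 2.14e-12, or -0.42 with RLE size factors). In mpECs it fell by 0.73 ± 0.15 on the log2 scale, a call lost without the Gm10800 clusters (-0.31, adjusted p = 0.0898), and the change was -1.16 with typing by marker UMIs. The 7 sinusoidal marker genes found in the tables summed to 128 to 137 CPM in aged and 325 to 377 CPM in adult aECs, and their part was not tested.

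Il1r1 was higher in aged bmECs (68.3 and 58.5 CPM against 41.6 and 37.1 in adult libraries, 0.69 ± 0.10), aECs (0.83 ± 0.17), mpECs (28.4 and 22.9 CPM against 11.0 and 9.15, 1.34 ± 0.27) and rECs (1.76 ± 0.45). The rEC value rested on 4 and 5 UMIs in adult and 38 and 46 in aged libraries and was 0.56 (adjusted p = 0.0265) without the condition on defining markers. In the Slco2a1/Crispld1 type it did not pass (0.46 ± 0.28, adjusted p = 0.193). Il4ra was higher in aged bmECs (0.26 ± 0.08) and rECs (0.66 ± 0.24) but lower in mpECs (-0.65 ± 0.13, adjusted p = 2.43e-05), where both aged libraries (46.2 and 55.7 CPM) lay under all others, but which was -0.27 (adjusted p = 0.127) with typing by marker UMIs. At a resolution of 0.8 the mpEC value was -0.24, and with RLE size factors that of bmECs was 0.49. The rEC call was lost without adult 1 (0.79, adjusted p = 0.0586) or adult 2 (0.59, adjusted p = 0.133), with typing by marker UMIs (0.57, 0.0665) and without the condition on defining markers (0.33, 0.131). Il13ra1 rose by 0.21 ± 0.08 in bmECs (adjusted p = 0.027), which did not pass without juvenile 1 (0.18, adjusted p = 0.0552), adult 1 (0.12, 0.284) or alendronate 1 (0.18, 0.0571), nor in 5 other settings (adjusted p of 0.0874 to 0.149, DESeq2 among them), and was 0.34 without aged 2 and 0.44 with RLE size factors.

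In aged against adult sums, 8 of 8 genes passed in bmECs (65.8% of all genes), 3 in the Slco2a1/Crispld1 type (42.2%), 5 in aECs (56.8%), 6 in mpECs (61.9%) and 5 of 7 in rECs (47.5%). Since most genes passed in several types, the counts were near the background and the sizes are given for that reason. RLE size factors raised the aged bmEC values of Il6st (0.45 to 0.68), Il13ra2, Il4ra and Il13ra1 (0.21 to 0.44) alike, so these sizes depended on the scaling. The highest aged bmEC values over the settings run were 0.97 for Lifr, 0.79 for Osmr, 0.92 for Il1r1 and -1.32 for Socs3. Aged and adult bmECs were spread differently over the clusters, which all held cells of both. The shallow Gm10800-led cluster (median depth 0.405 of the library median) held 35.0% of aged and 13.7% of adult bmECs. A cluster led by Ptx3, Ctgf and Madcam1 held 24.6 and 3.24%. Clusters led by Sema3a (3.80 against 22.0%), Slc39a1 (5 against 21.2%) and Fos and Fosb (2.93 against 9.64%) held fewer. The part of depth in the aged differences was not tested. Within clusters, aged bmECs were higher for Il6st, Osmr and Il1r1 in 7 of 7, lower for Socs3 in 6 of 7 and lower for Il13ra2 in 5 of 7. The Socs3 exception was the Sema3a-led cluster, where 35 aged cells held 29 UMIs (163 against 101 CPM, plain totals).

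Other pathway genes moved in both directions in aged bmECs. With 65.8% of all genes called there, the shares of these lists that were called lay near or under the background. Of 11 genes known to rise with STAT3, 7 were lower and 0 higher (median -0.755, all genes 0.03), with Junb at -2.03 ± 0.06, Lrg1 at -1.93 ± 0.04 and Cebpb at -1.07 ± 0.09. Of 11 transducers 6 were higher and 1 lower (Stat2 1.12 ± 0.10 and Jak2 0.78 ± 0.08), and of 11 other inhibitors 4 were higher and 1 lower, led by Socs4 (0.69 ± 0.12). Of 19 other interleukin receptors 5 were higher and 8 lower, with the interleukin-11 receptor Il11ra1 at -1.05 ± 0.10. Socs3 was lower together with Lrg1, Cebpb and Junb, and with Fos (-2.55 ± 0.07) and Fosb (-2.45 ± 0.12), while the receptors Il6st, Lifr and Osmr rose.

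After PTH, Il6st and Il13ra2 were lower in mpECs and the Slco2a1/Crispld1 type, Lifr was higher, and Socs3 rose in bmECs alone among the 5 tests. Il6st in mpECs was 222 and 233 CPM in juvenile, 301 and 291 in adult, 317 and 318.5 in aged, 139 and 155 in PTH and 309 and 331 in alendronate libraries. In the Slco2a1/Crispld1 type it was 829.5 and 918 in juvenile, 1243 and 1286 in adult, 1626 and 1224 in aged, 716 and 814 in PTH and 1403 and 1529 CPM in alendronate libraries. In both types the PTH libraries were the lowest of the 10 and overlapped with no other group. The log2 fold change to adult was -0.99 ± 0.08 in mpECs (adjusted p = 2.06e-15), -0.70 ± 0.10 in the Slco2a1/Crispld1 type (adjusted p = 4.74e-08) and -0.44 ± 0.08 in aECs (167 and 194.5 against 248 and 251 CPM). The mpEC value was -0.55 without centring by library, the smallest over the settings run. In bmECs, where Il6st was most abundant, the change was -0.06 ± 0.04 (adjusted p = 0.453), and in rECs 0.38 ± 0.19 (adjusted p = 0.43).

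Il13ra2 in mpECs was 85.1 and 87.6 CPM in juvenile, 56.9 and 59.7 in adult, 33.7 and 36.7 in aged, 22.2 and 22.8 in PTH and 79.4 and 82.7 in alendronate libraries. In the Slco2a1/Crispld1 type it was 107 and 116 CPM in PTH libraries against 246 and 258 in adult ones, and 206 to 284 CPM in the other groups. PTH libraries were lowest in both types, by -1.36 ± 0.14 (adjusted p = 4.1e-11) and -1.15 ± 0.14 (adjusted p = 5.24e-10), and bmECs fell less, by 0.26 ± 0.06 on the log2 scale. Typing cells by marker UMIs alone left the Il6st change of the Slco2a1/Crispld1 type at -0.15 and that of Il13ra2 at -0.90 (adjusted p = 0.614), with PTH 2 (73 cells) as the sole PTH library against adult sums of 45 and 30 cells, and omitting the centring by library left Il6st at -0.11 and Il13ra2 at -0.53.

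Sinusoidal markers moved with these results. The 7 sinusoidal marker genes summed to 649.5 to 737 CPM in adult and 280.5 to 317 CPM in PTH mpECs, and to 3971 to 4144 against 1633 to 1988 CPM in the Slco2a1/Crispld1 type, whereas the 5 metaphyseal markers in the latter rose from 860.2 to 946 CPM in adult to 2506 to 2578 CPM in PTH sums. A cluster of the Slco2a1/Crispld1 type led by Igfbp5, Aplnr and Tfpi2 held 73.1% of its PTH cells and 42.0% of its adult cells. Within clusters, Il6st and Il13ra2 were lower after PTH in 4 of 4 mpEC and 2 of 2 Slco2a1/Crispld1 clusters. In the Ramp3-led mpEC cluster, for example, Il6st was 144 CPM in PTH and 255 CPM in adult cells and Il13ra2 29.9 and 84.0 CPM (plain totals). The part of the sinusoidal markers in these differences was not tested.

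Lifr rose with PTH by 0.68 ± 0.13 in the Slco2a1/Crispld1 type, 0.46 ± 0.09 in mpECs (192 and 203 CPM against 142 and 147 in adult libraries) and 0.36 ± 0.06 in bmECs (adjusted p = 4.56e-05). The Slco2a1/Crispld1 value was 0.40 (adjusted p = 0.35) without PTH 2 and -0.01 (0.996) with typing by marker UMIs, where PTH 2 was again the sole PTH library. Lifr and Il6st, the chains of the leukaemia inhibitory factor receptor, changed in opposite directions in mpECs and the Slco2a1/Crispld1 type. Socs3 rose in bmECs by 0.71 ± 0.07 (adjusted p = 1.6e-10) and changed by -0.34 ± 0.25, -0.05 ± 0.12, -0.07 ± 0.14 and 0.55 ± 0.29 in the Slco2a1/Crispld1 type, aECs, mpECs and rECs, none of which passed. Il1r1 rose by 0.32 ± 0.10 in bmECs (adjusted p = 0.0383), lost without adult 2 (0.24, adjusted p = 0.267), PTH 1 (0.30, 0.113) or PTH 2 (0.34, 0.257), in DESeq2 (0.235), without the highest doublet scores (0.0517) and without the Gm10800 clusters (0.0556).

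The PTH counts were 4 of 8 in bmECs (8.41% of all genes), 3 in the Slco2a1/Crispld1 type (13.3%), 1 in aECs (7.24%), 3 in mpECs (9.3%) and 0 of 7 in rECs (2.22%), where by an unadjusted p under 0.05 only Il13ra1 passed. In bmECs 5 of 11 genes known to rise with STAT3 were higher and 1 lower (median 0.26, all genes -0.00648), including Cebpd (0.38 ± 0.05) and Cebpb (0.29 ± 0.07). In mpECs, where Socs3 did not pass, 1 of 9 STAT3 genes was higher and 2 lower, with Lrg1 at -0.61 ± 0.06. Lrg1 was also lower in the Slco2a1/Crispld1 type (-0.81 ± 0.09) and aECs (-0.73 ± 0.06). Lrg1 was itself highest in bmECs, and sinusoidal markers were lower in PTH mpECs and the Slco2a1/Crispld1 type. Their part was not tested.

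After alendronate, Socs3 was higher in 4 of 5 types, and several receptors were higher in bmECs. Socs3 in rECs was 122 and 109 CPM in alendronate libraries against 61.6 and 42.7 in adult and 23.8 and 21 CPM in aged ones (1.13 ± 0.23, adjusted p = 0.000496). In mpECs it was 103 and 70.3 CPM against 51.4 and 61.6 CPM in adult libraries (0.64 ± 0.14). The groups did not overlap in either type. The mpEC call was lost without adult 1 (0.53, adjusted p = 0.0593) or alendronate 1 (0.35, adjusted p = 0.294), and the rEC call without adult 2 (0.92, adjusted p = 0.103) in DESeq2 (adjusted p = 0.0979) and with no filter on low counts (0.0577). In bmECs Socs3 rose by 0.35 ± 0.06 (adjusted p = 0.000105), or 0.21 without adult 1. In aECs it rose by 0.36 ± 0.11 (adjusted p = 0.0479), a call that leaving out any 1 of 7 libraries ended, with values of 0.26 without alendronate 1 (adjusted p = 0.364), 0.30 without adult 2 (0.321), 0.39 without adult 1 (0.194) or alendronate 2 (0.116), and 0.33 without juvenile 1 (0.074), aged 1 (0.0995) or aged 2 (0.0992). The aEC call was also lost in 6 of 14 other settings, with values down to 0.14 (no centring by library, adjusted p = 0.635). It did not pass in the Slco2a1/Crispld1 type (0.69 ± 0.22, adjusted p = 0.0561). The early-response genes summed to 4438 to 4567 CPM in alendronate and 2522 to 2546 CPM in adult rECs and to 2999 to 3036 against 2460 to 2610 CPM in bmECs. In aECs they summed to 3016 to 3205 against 1959 to 2182 CPM, and in mpECs to 2181 to 2224 against 1734 to 1823 CPM. Their part was not tested.

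Among the receptors, Il1r1 in bmECs was 61.1 and 62.9 CPM after alendronate against 41.6 and 37.1 in adult libraries (0.66 ± 0.09, adjusted p = 3.01e-07), and Il13ra1 was 89.2 and 89.1 against 64.1 and 70.3 CPM (0.41 ± 0.07). Both alendronate libraries lay above both adult libraries for each gene. Il6st (0.17 ± 0.04), Il4ra (0.25 ± 0.07) and Osmr (0.19 ± 0.06) rose less in bmECs. The Il4ra call was lost without adult 2 (0.20, adjusted p = 0.133) or alendronate 1 (0.25, 0.0631), and the Osmr call without adult 2 (0.14, adjusted p = 0.179) or alendronate 1 (0.16, 0.163). Osmr also rose in aECs (0.45 ± 0.10), lost without adult 1 (0.41, adjusted p = 0.0685) or alendronate 2 (0.36, 0.075). Il13ra2 rose in mpECs (0.47 ± 0.12), lost without adult 1 (0.46, adjusted p = 0.0648) or alendronate 2 (0.45, 0.0594), and was 0.09 and 0.05 at resolutions of 0.4 and 0.8 and of opposite sign (-0.47) when cells were typed by marker UMIs. Without centring by library it was 0.28 (adjusted p = 0.291). DESeq2 called neither Osmr in aECs nor Il13ra2 in mpECs, nor Il4ra and Osmr in bmECs (adjusted p of 0.0943 and 0.0974).

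The alendronate counts were 6 of 8 in bmECs (16.9% of all genes), 0 in the Slco2a1/Crispld1 type (3.68%), 2 in aECs (7.69%), 2 in mpECs (10.7%) and 1 of 7 in rECs (2.57%). In the Slco2a1/Crispld1 type 3 genes (Socs3, Il1r1 and Il6st) had an unadjusted p under 0.05, and DESeq2 called 5 of 39 over all types where edgeR called 11. In bmECs 3 of 11 STAT3 genes were higher and 1 lower (Bcl3 0.48 ± 0.07, Pim1 -0.68 ± 0.13; median 0.31, all genes -0.00546), 3 transducers were higher and 1 lower (Jak2 0.53 ± 0.07), and Socs2 rose by 0.46 ± 0.06.

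The difference of a group's effect between the 5 types was tested directly. For juvenile against adult 7 of 8 genes differed between types (10.7% of all genes), for aged 5 (25.5%), for PTH 5 (9.64%) and for alendronate 1 (4.56%). The smallest adjusted p was that of Il6st with PTH (4.27e-15), where -0.99 in mpECs stood beside -0.06 in bmECs. It was followed by Il13ra2 with PTH (2.54e-10, but 0.0904 with cells typed by marker UMIs, where PTH 1 gave no Slco2a1/Crispld1 sum), Socs3 with age (5.86e-10, -1.55 in bmECs and -0.19 in aECs) and Il13ra2 with age (2.54e-09). Lifr with age, higher in every type, did not pass this test (adjusted p = 0.109).

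Within bmECs, cells with a UMI of the early-response gene Fos more often held Socs3. Over libraries the relation was uneven. Juvenile bmECs had less of the early-response genes (1440 to 1454 CPM against 2460 to 2610 in adult sums). Socs3 did not pass there with all clusters and was higher without the cluster led by Fos and Fosb (values below). With bmECs thinned to 1000 UMIs and divided by whether they held a Fos UMI, Socs3 was found in 21.1 and 23.1% of juvenile, 18.7 and 22.4% of adult, 10.3 and 2.44% of aged, 29.7 and 29.9% of PTH and 21.9 and 23.6% of alendronate cells with Fos. In cells without Fos the shares were 3.04 to 9.32%. The share was higher with Fos in 9 of 10 libraries, the exception being aged 2 (2.44% of 41 cells with Fos and 4.95% of 404 without). The same direction was seen in 9 of 10 libraries for aECs and for mpECs. It was seen in 7 libraries for the Slco2a1/Crispld1 type, where aged 1 had no cell with Fos, and in 6 for rECs, where juvenile 2 had none and 4 others held 1 to 3 such cells.

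**Figure D4:**
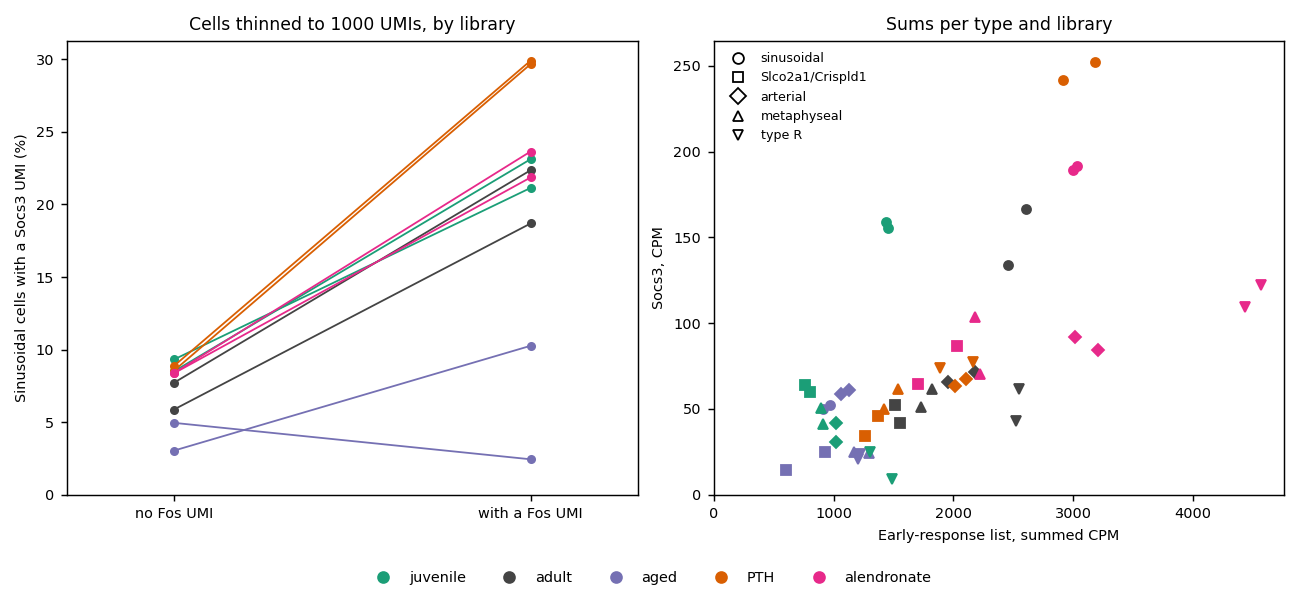
Left, percent of sinusoidal cells (thinned to 1000 UMIs) with a Socs3 UMI among cells without and with a Fos UMI, 1 line per library. Right, Socs3 against the summed early-response genes, both in CPM, for the 50 sums of type and library; 9 of 10 lines rise on the left, and the sinusoidal sums have the most Socs3 in each group except the aged, where they lie at 52.1 and 49.8 CPM, under the arterial sums.

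The bmEC cluster led by Fos and Fosb, which held 1696 cells, had 517 CPM of Socs3 (plain totals, Socs3 is among its leading genes but was left out of the clustering). It made up 9.64% of adult, 9.94% of juvenile, 14.2% of PTH and 9.21% of alendronate bmECs. When it was removed, the bmEC differences of Socs3 to adult kept their direction, with -1.40 for aged, 0.53 for PTH (adjusted p = 2.6e-06) and 0.43 for alendronate (adjusted p = 1.59e-05), and the juvenile one became 0.37 (adjusted p = 3.22e-05), which had been 0.07 ± 0.06 (adjusted p = 0.412) with the cluster. In juvenile bmECs 9 of 12 early-response genes were lower (median -0.91) and in PTH and alendronate bmECs 9 and 10 were higher (medians 0.36 and 0.48), beside 36.7%, 8.41% and 16.9% of all genes called.

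Marker lists of other cells were present at varying levels in the sums of the 5 types. The 8 haematopoietic markers summed in bmECs to 7.51 to 14.2 CPM in juvenile, 53.6 to 54.8 in adult, 39.7 to 49.5 in aged, 26.2 to 29.0 in PTH and 85.2 to 90.2 CPM in alendronate libraries. The 6 erythroid markers were highest in aged rECs, at 452 CPM in 1 library and 2842 CPM in the other against 219 and 472 CPM in adult rECs, and were 79.1 to 616 CPM in bmECs. Megakaryocyte markers were 3.52 to 266 CPM and mural markers 7.45 to 108.5 CPM. Lymphatic markers reached 227 CPM in 1 alendronate mpEC sum and 4.13 CPM in the other. Their part in the values of these sums was not tested.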

How the data were processed

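Single-cell RNA-seq libraries were processed by the authors with UMI-tools 1.1.2, STAR 2.7.10a and featureCounts 2.0.3 of Subread on mm10, which the submitters' processing notes name, and were deposited as UMI counts per gene and cell, 1 table per library, not normalized. The strand setting is not given in the sources used here. Genes whose names begin with U were left out of all libraries before cells were filtered. Cells were filtered and gated as the report states, with genes in fewer than 3 cells left out of the number of genes per cell only. Libraries were integrated with Seurat 5.3.0 (adult libraries as reference, 2000 variable genes without the 8 members, 30 components) and clustered with leidenalg 0.10.2. Scanpy 1.11.5 was used for doublet scores. Clusters were named from marker lists. In all, 3 decisions were made after the clusters had been seen, namely the integration in place of scaling within libraries, a resolution of 1.5 in place of 0.8, which had given no Slco2a1/Crispld1 cluster, and the condition that every defining marker of a type exceed the other clusters by a log2 difference over 0.5. The doublet caller marked 2 to 40 cells per library and had not worked, so doublets stayed in and an alternative removed the highest scores.

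UMI counts were summed per type and library (at least 20 cells) and scaled by TMM. EdgeR 4.0.16 (R 4.3.3) was used for quasi-likelihood tests with Benjamini-Hochberg adjustment over all genes tested. Types were tested with the library as a block, each against the unweighted mean of the other 4, and called at an adjusted p under 0.05 and an absolute log2 fold change over 1. Groups were tested within each type against adult in 1 fit of all 5 groups, called at an adjusted p under 0.05, and the difference between types by an interaction term. The bmEC test between types, the PTH tests in bmECs and rECs and the PTH interaction test were tried on simulated sums. The other group tests were not. The simulated sums had a fixed dispersion and no effect shared by the sums of a library. Shares of cells were computed after thinning to 1000 UMIs, leaving out shallower cells (3 to 548 per type), with exact binomial intervals that cover counting error only. DESeq2 1.42.0 and the settings of the closing section were alternatives. Replicate numbers did not pair the libraries (correlations of -0.14 to 0.09). The libraries of a group differed beyond sampling noise (chi-square per degree of freedom 2.13 to 7.88). The 8 genes, and at most 3 called genes of largest change per pathway list, were named (1 list gene is not reported here), and the members and lists were chosen with earlier results of these data known.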

Additional observations from a re-analysis of the deposited data

Results flagged for a closer look

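The effect of a group differed between the 5 types, by an interaction term (edgeR, adjusted p over all genes), for 18 of the 32 combinations of gene and group. With PTH these were Il6st (4.27e-15), Il13ra2 (2.54e-10), Socs3 (2.26e-07), Lifr (0.00344) and Il13ra1 (0.032). Il6st and Il13ra2 fell most in mpECs and the Slco2a1/Crispld1 type, Socs3 rose in bmECs, and Lifr rose in bmECs, mpECs and the Slco2a1/Crispld1 type. The Lifr value did not pass without adult 2 (0.121) or PTH 2 (0.17), nor did that of Il13ra1 without adult 1 (0.0906), adult 2 (0.499), PTH 1 (0.146) or PTH 2 (0.0951). With cells typed by marker UMIs, Il13ra2 (0.0904), Lifr (0.508) and Il13ra1 (0.137) did not pass, where PTH 1 gave no Slco2a1/Crispld1 sum, and Lifr was 0.187 and 0.0733 at resolutions of 0.4 and 0.8, which had no such type. Il13ra1 was also lost in 4 other settings (0.0503 to 0.0865).

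With age the genes were Socs3 (5.86e-10), Il13ra2 (2.54e-09), Il4ra (9.2e-07), Il6st (0.00158) and Osmr (0.0196). Il4ra was lower in aged mpECs and higher in aged bmECs and rECs. Without adult 1 or adult 2 the value of Il6st was 0.0686 or 0.124, and without adult 1 or aged 2 that of Osmr was 0.294 or 0.247. Without centring by library Il4ra (0.335) and Osmr (0.105) did not pass, but that setting had no aged mpEC or Slco2a1/Crispld1 sums, so the lower Il4ra of aged mpECs was not in the test. With typing by marker UMIs Il6st (0.0853) and Osmr (0.0908) did not, in DESeq2 Il6st (0.131) and Osmr (0.204) did not, and with RLE size factors Osmr (0.091) did not.

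In juvenile bone they were Il4ra (4.9e-06), Socs3 (0.000156), Il13ra2 (0.00128), Il6st (0.00275), Lifr (0.00406), Osmr (0.00486) and Il13ra1 (0.0312). Single libraries decided 5 of these: Il13ra2 without adult 1 (0.0931), Il6st without adult 2 (0.149), Lifr without juvenile 1 (0.101) or adult 1 (0.0857), Osmr without juvenile 1 (0.273) or adult 2 (0.146), and Il13ra1 without juvenile 2 (0.458), adult 1 (0.262) or adult 2 (0.078). Without centring by library Il13ra2 (0.876), Lifr (0.223) and Il13ra1 (0.0996) did not pass, with juvenile 2 (23 cells) as the sole juvenile library of the Slco2a1/Crispld1 type. In DESeq2 Il6st (0.472) and Il13ra1 (0.097) did not, with typing by marker UMIs Il13ra2 (0.144) did not, and without the Gm10800 clusters Osmr (0.104) did not. Il13ra1 was also lost in 3 other settings (0.0655 to 0.0872).

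With alendronate it was Il13ra2 alone (0.0146), which did not pass without adult 1 (0.318), adult 2 (0.068), alendronate 1 (0.0671) or alendronate 2 (0.258), nor in 5 other settings (0.0601 to 0.804).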

How the results depend on the processing

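Of 95 calls on the 8 genes, 48 passed in every setting that tested them, 12 in all but 1, and 35 were lost in over 1. A setting without the type or sums of a call did not count for it. Resolutions of 0.4 and 0.8, for example, could not lose a call of the Slco2a1/Crispld1 type. The counts of calls were 13 between types, 15 for juvenile, 27 for aged, 11 for PTH and 11 for alendronate against adult, and 18 for effects that differed between types. Leaving out 1 library at a time gave 13 to 13, 14 to 16, 24 to 28, 9 to 12, 7 to 12 and 11 to 20, with 7 for alendronate without adult 1, adult 2 or alendronate 1, and 11 for the differences between types without adult 1 or adult 2. DESeq2 gave 5 calls for alendronate, and typing cells by marker UMIs gave 11 differences between types. A reading that changed sign was that of Il6st in rECs against the other types, 0.27 without the condition on defining markers, an alternative chosen after seeing the data. That naming also turned Il6st in aged aECs to -0.00994 and in aged rECs to 0.31 and Lifr with PTH in rECs to 0.39. Typing by marker UMIs turned Lifr with PTH in the Slco2a1/Crispld1 type to -0.00992, with 1 PTH library (73 cells) left there, and Il13ra2 with alendronate in mpECs to -0.47, omitting the centring by library turned Il13ra2 in juvenile mpECs to -0.12, and resolutions of 0.4 and 0.8 turned Lifr with alendronate in mpECs to 0.29 and 0.30. The cause was not tested. At both of those resolutions no Slco2a1/Crispld1 cluster was found, and Il6st was lower in aECs by only -0.88 and -0.85 and in mpECs by -0.34 and -0.30. Of the 40 shares of gene and type, 37 medians lay above the median outside share as reported, 39 with thinning to 2000 UMIs or none and 38 with a gate of 4 UMIs. These counts include genes whose median outside share was 0, where any median over 0 counted as above.

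With the replicate number as a block the counts were 15 for juvenile, 27 for aged, 13 for PTH and 12 for alendronate; the block lost no call on the 8 genes and added 3. With the PTH numbers crossed the count was 11. The comparisons of groups were limited in rECs, where the juvenile and PTH 1 sums rested on 46, 30 and 26 cells. Il13ra2 had too few UMIs there to be tested between groups. They were also limited in the Slco2a1/Crispld1 type, where the aged sums rested on 54 and 67 cells.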
